A study of Mus musculus with 12 samples.

Results

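The transcripts described are those of the laminins, nidogens and integrins of the E14.5 mouse testis, with the 3 other large laminin partners of the basement membrane, dystroglycan, perlecan and agrin. The 42 members were chosen by gene symbol from 24470 genes in the count table, as every gene named Lama, Lamb, Lamc, Nid, Itga or Itgb with its number or letter, plus Dag1, Hspg2 and Agrn. Of these, 39 passed the filter on low counts, and the integrin genes Itgad, Itgax and Itgb6 did not. Bulk RNA-seq was made from whole testes of control embryos (Nr2f2 f/f) and of embryos that also carried Wt1 CreER, named cKO, with 6 libraries in each group. All embryos had 2 floxed Nr2f2 alleles and, per the methods of the study, tamoxifen was given to the pregnant females at E11.5 and E12.5. Each library was a pool of 3 testes. The deletion is driven by Wt1, which is active in several somatic lineages of the fetal gonad, and the inducible Cre is described as incomplete, so the cKO testes are mosaics of deleted and undeleted cells. The control embryos lack the Cre, so an effect of CreER itself cannot be told apart from that of the deletion. The comparison asks how transcripts change when Nr2f2, a nuclear receptor of interstitial cells, is lost before the fetal Leydig cells appear. Neither the labels nor the methods say which pools share a litter, so p-values measure the spread between pools.

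Basement membranes are thin sheets of matrix that separate epithelia, muscle and vessels from the tissue around them, and in the fetal testis they enclose the cords that hold Sertoli and germ cells. Laminins are secreted trimers of 1 alpha, 1 beta and 1 gamma chain that assemble into a sheet, nidogens and perlecan link that sheet to the collagen IV network, and agrin and perlecan carry heparan sulfate. Cells hold on to it through integrins, which are pairs of an alpha and a beta chain, and through dystroglycan.

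Nr2f2 checked the labels. Its level was 163 to 186 CPM (counts per 1000000 counts of the library, with library sizes scaled by the TMM method) in the control pools and 50.2 to 119 CPM in the cKO pools, with no overlap (log2 fold change −1.21, SE 0.16, edgeR adjusted p = 0.000548). Total counts per library ran from 7044531 to 39965574 in the controls and from 7322959 to 59404778 in the cKO. Of 15572 genes tested with edgeR's quasi-likelihood test, 1266 passed an adjusted p of 0.05, 756 lower and 510 higher in the cKO. That count was 3106 without control pool 1 and 816 without cKO pool 4. The testis was present by its markers, since 10 of 10 Sertoli and 10 of 10 germ cell markers were above 0 in all 12 libraries. Xist, the RNA made from the inactive X chromosome of female cells, stood at 304 to 891 CPM in control pool 1 and cKO pools 3, 5 and 6 and at 5.15 to 7.68 CPM in the other 8 pools. The summed level of 6 ovarian markers was 141 to 315 CPM in those 4 pools and 66.7 to 92.8 CPM in the other 8, and that of 8 meiotic markers 529 to 1152 CPM and 219.7 to 376 CPM. The labels give testis for all 12 libraries, and whether these 4 pools also hold female gonads was not tested. Results are therefore given with all 12 libraries and again with the 8 libraries of low Xist, which are 5 control and 3 cKO pools.

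Among the 39 members tested, 3 were lower in the cKO and none was higher at an edgeR adjusted p of 0.05. The count of higher members changed with the setting, to 4 without control pool 1 (Agrn, Itga3, Itga6 and Itgb5), 2 by DESeq2 (Itga6 and Itgb5) and 6 with quality weights (limma-voom weighting each library by its fit). The 6 were those 4 with Itga5 and Itgav. Over all genes tested 4.85% were called lower, 3.28% higher and 8.13% in either direction, beside 7.69% of the members called lower. In either direction, 19.9% of all genes were called without control pool 1, 9.11% by DESeq2 and 24.8% with quality weights. At an unadjusted p under 0.05, 12 of the 39 members passed, the called ones among them, beside 3929 of the 15572 genes. The called members were the laminin chains Lamc3 and Lama2 and the integrin chain Itga4. Because whole testes were measured, fewer cells that make these transcripts and less RNA per cell cannot be told apart. In 2 members, Lamc3 and Itga4, all cKO pools lay under all control pools, and in 1, Itgb5, every cKO pool lay above them. Over all genes such separation was seen in 3.13% for below and 2.39% for above. The members had a median change of −0.07 on the log2 scale, beside 0.00 over all genes tested. Of the members, 25 were below 0 and 14 above, beside 7687 and 7885 of all genes.

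**Figure D1:**
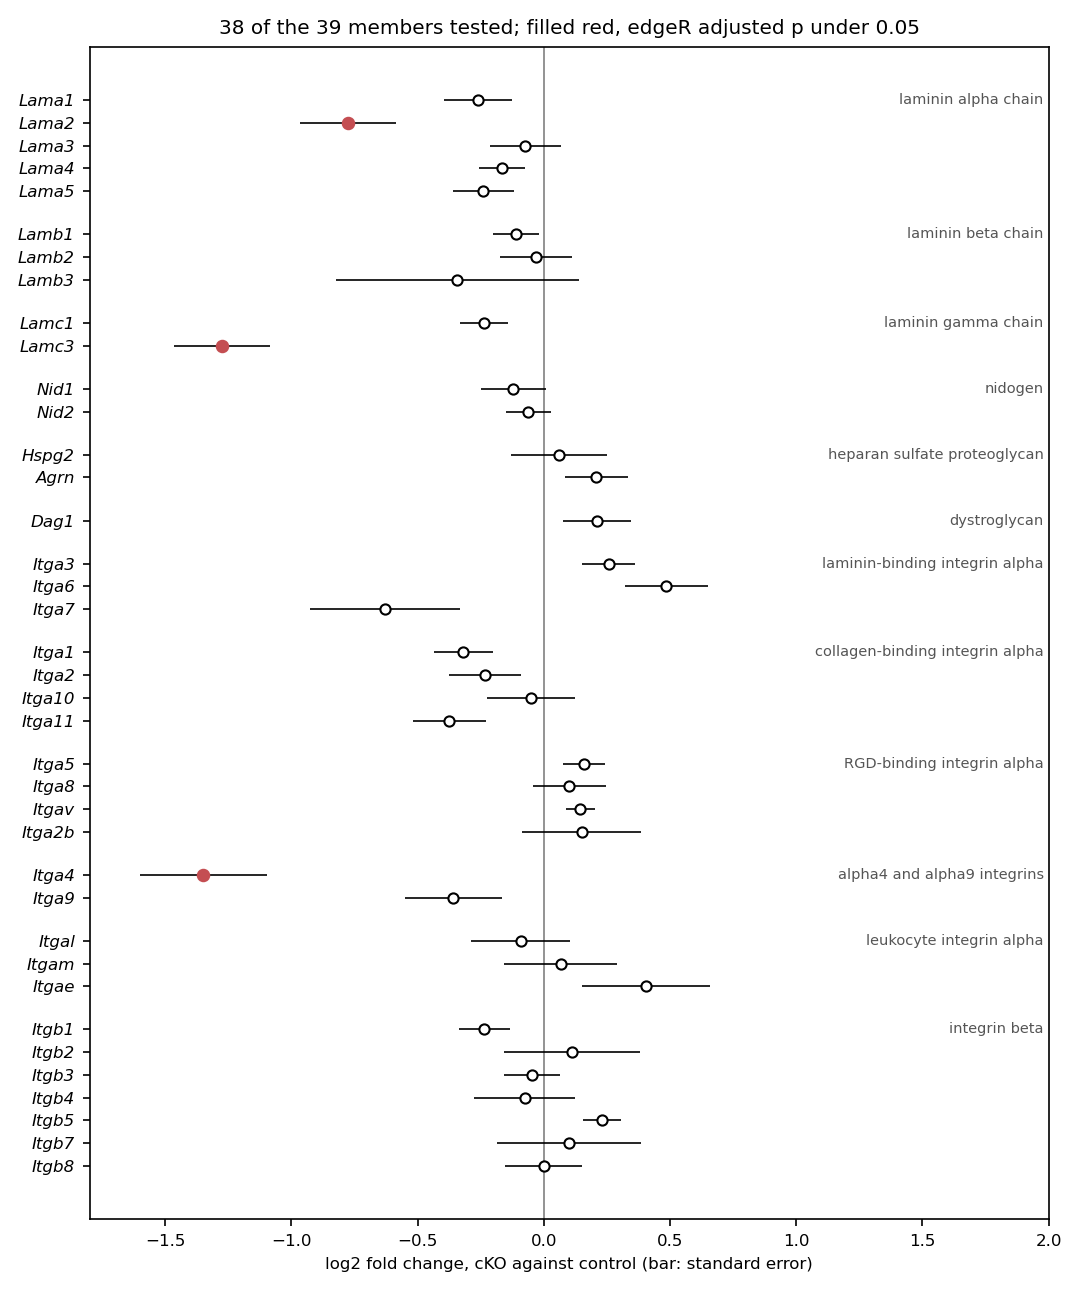
Log2 fold change of 38 of the 39 members tested, cKO against control, with its standard error as a horizontal bar, arranged by the role of the gene product. Filled red points passed an edgeR adjusted p of 0.05, and these are Lama2 at −0.78, Lamc3 at −1.28 and Itga4 at −1.35; open points did not pass.

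The stretch of 250 bases before the annotated start of a gene is shown for the members on which these results turn, to let the sequence stand beside the values. The sequences are from RefSeq on GRCm38.p6, the same assembly as mm10, and run 5′ to 3′ on the strand of the gene. Capitals mark the GC box GGGCGG, the letters bound by Sp-family factors, on either strand. Itga4 lies at chr2:79255426-79333114 on the plus strand and its promoter at chr2:79255176-79255425. Lama2 lies at chr10:26981285-27616942 on the minus strand and its promoter at chr10:27616943-27617192. Itgb5 lies at chr16:33829665-33949338 on the plus strand and its promoter at chr16:33829415-33829664. Lamc3, at chr2:31887281-31946535 on the plus strand, is named only.
Itga4: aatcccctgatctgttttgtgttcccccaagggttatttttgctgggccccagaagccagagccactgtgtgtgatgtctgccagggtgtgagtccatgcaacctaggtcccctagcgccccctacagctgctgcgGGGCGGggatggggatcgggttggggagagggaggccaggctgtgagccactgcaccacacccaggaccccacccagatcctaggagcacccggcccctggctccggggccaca
Lama2: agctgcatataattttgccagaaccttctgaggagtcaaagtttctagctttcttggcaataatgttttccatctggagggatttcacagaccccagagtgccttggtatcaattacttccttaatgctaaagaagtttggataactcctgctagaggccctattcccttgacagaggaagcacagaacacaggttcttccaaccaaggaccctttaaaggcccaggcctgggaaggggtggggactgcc
Itgb5: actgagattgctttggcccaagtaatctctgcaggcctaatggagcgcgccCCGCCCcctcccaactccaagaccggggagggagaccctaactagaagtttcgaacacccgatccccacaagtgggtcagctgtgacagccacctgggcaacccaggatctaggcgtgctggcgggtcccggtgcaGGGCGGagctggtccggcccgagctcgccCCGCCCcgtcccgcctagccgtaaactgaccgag

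The upstream 250 bases of Itga4 held 1 GC box, starting 114 bases before the start of the gene, and those of Itgb5 held 3, starting 199, 63 and 34 bases before it. The stretch before Lama2 held none. GC content was 64.0% for Itga4, 65.2% for Itgb5 and 47.2% for Lama2, beside a median of 52.4% over all promoters. Entries were matched for 27 of the 42 members, with 32 promoters searched in all, and 15 of these held a GC box, a motif found in 32.7% of 32817 mouse promoters of that length. The nuclear receptor half-site AGGTCA, searched on both strands, was in 0 of 32 member promoters and in 14.0% of all, and the TATA box TATAAA in 0 of 32 and in 12.4%. None of these motifs can be read inside another, and a window without these letters says nothing of a factor.

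The largest change among the laminins was that of Lamc3. Lamc3, the gamma chain that has been described in trimers with the Lama2 and Lamb1 chains, stood at 44.0, 49.9, 52.9, 63.2, 42.6 and 45.1 CPM in control pools 1 to 6 and at 21.9, 33.1, 17.8, 21.5, 11.1 and 17.0 CPM in cKO pools 1 to 6. All 6 cKO values lay under all 6 control values, and cKO pool 2 was the nearest to the controls. The mean fell from 49.6 ± 7.70 to 20.4 ± 7.34 CPM (log2 fold change −1.28, SE 0.19, edgeR adjusted p = 0.00101). Lamc3 has 28 exons, and its lowest count in any library was 82. In the 8 libraries of low Xist, its log2 fold change was −1.01 (SE 0.17, edgeR adjusted p = 0.0052).

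Lamc1, the gamma chain found in most laminins, stood at 521, 417, 443, 493, 328 and 387 CPM in control pools 1 to 6 and at 366, 369, 378, 376, 346 and 360.3 CPM in cKO pools 1 to 6. The 6 cKO pools lay close together within the range of the controls, which spread more widely (log2 fold change −0.24, SE 0.09, edgeR adjusted p = 0.138).

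To set chains side by side, CPM were divided by the length in kb of the longest transcript, and each chain was given as a percentage of the chains it is set beside. Lamc3 made up 13.1 ± 1.66% of Lamc1 and Lamc3 transcripts together in the controls and 6.68 ± 2.16% in the cKO, with ranges of 9.88 to 14.4% and 4.01 to 10.4% (SD, n = 6 each). These shares overlapped between the groups through control pool 1 and cKO pool 2, and no test was made on them because such shares sum to a whole.

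**Figure D2:**
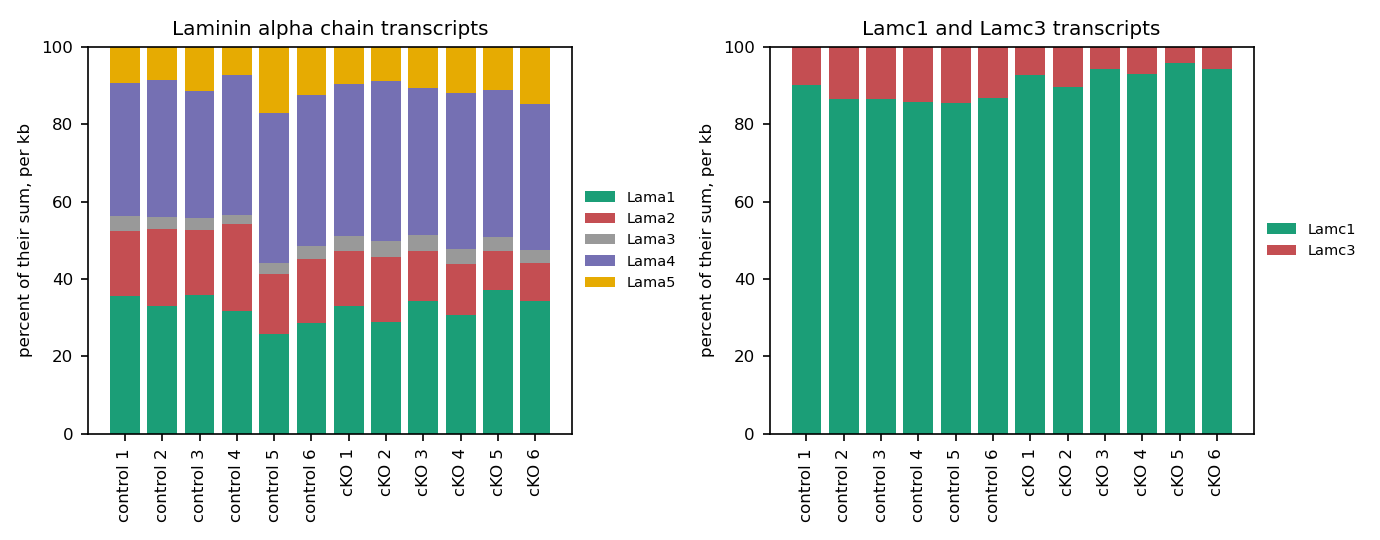
Make-up of laminin alpha chain transcripts (left) and of the gamma chains Lamc1 and Lamc3 (right) in each of the 12 libraries, as percent of the summed CPM per kb of the chains shown. Each bar is 1 library and sums to 100%, and red marks Lama2 at 10.1 to 22.5% of alpha chains and Lamc3 at 4.01 to 14.4% of Lamc1 and Lamc3.

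Lama2, the alpha chain of the laminins around muscle cells and Schwann cells, was the only alpha chain called with the 12 libraries in edgeR. Its values stood at 125, 127, 111, 169, 76.8 and 99.3 CPM in control pools 1 to 6 and at 78.4, 98.8, 66.0, 71.0, 50.3 and 48.9 CPM in cKO pools 1 to 6. The groups overlapped, since cKO pools 1 and 2 lay above control pool 5, and control pool 4 was the highest of all. The mean fell from 118 ± 31.0 to 68.9 ± 18.7 CPM (log2 fold change −0.78, SE 0.19, edgeR adjusted p = 0.0225). The call on Lama2 depended on single pools and on the libraries of high Xist. Its log2 fold change was −0.65 without control pool 4 (edgeR adjusted p = 0.0525), −0.70 without cKO pool 5 (adjusted p = 0.0522) and −0.50 with the 8 libraries (adjusted p = 0.155).

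The other alpha chains had log2 fold changes between −0.07 and −0.26, and none passed in edgeR with 12 libraries. Lama1 was called lower with quality weights and without control pool 5. Lama4, a chain of vessel and mesenchymal laminins, had a log2 fold change of −0.17, and Lama1, the main alpha chain of early embryonic basement membranes, one of −0.26. Lama5, the chain of many mature epithelial and vessel membranes, stood at −0.24, and Lama3, the partner of Lamb3 in epithelial laminin, at −0.07. By length, Lama4 held 36.1% and Lama1 31.7% of alpha chain transcripts in the controls, an order that turned to 24.5% and 42.1% when the length was that of all exons joined. Lama2 held 18.0 ± 2.68% in the controls and 12.9 ± 2.55% in the cKO (SD, n = 6 each), overlapping between groups.

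Lamb1, the beta chain of most embryonic laminins, held 83.0% of beta chain transcripts in the controls and 81.8% in the cKO. Its values stood at 633, 606, 597, 648, 487 and 585 CPM in control pools 1 to 6 and at 613, 618, 563, 573, 462 and 469 CPM in cKO pools 1 to 6. The groups overlapped and the log2 fold change was −0.11 (SE 0.09, edgeR adjusted p = 0.473). Lamb2, which takes its place at synapses and in the kidney filter, had a log2 fold change of −0.03, and Lamb3 was at or under 1.49 CPM in every library. All 11 laminin chains had a log2 fold change below 0 with 12 libraries, under TMM and under the other scalings tried. Over all 15572 genes tested, 7687 were below 0 under TMM. Only Lamc3 and Lama2 of the chains were called there, and all chains were measured in the same pools. With the 8 libraries Lama3 and Lamb1 turned to 0.18 and 0.04, with quality weights Lama3 and Lamb3 turned above 0, and without control pool 1 Lama3, Lamb2 and Lamb3 did.

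The nidogens had no call. Nid1 stood at 519, 448, 435, 475, 308 and 414 CPM in control pools 1 to 6 and at 438, 469, 431, 422, 319 and 311 CPM in cKO pools 1 to 6. The groups overlapped, with control pool 5 and cKO pools 5 and 6 lowest (log2 fold change −0.12, SE 0.13, edgeR adjusted p = 0.576). In the 8 libraries of low Xist it was 0.10. Nid2 had a log2 fold change of −0.06 at 209 ± 29.4 CPM in the controls and 200.3 ± 9.44 CPM in the cKO (SD, n = 6 each). Of the heparan sulfate proteoglycans, Hspg2, which encodes perlecan, ran from 277 CPM in control pool 5 to 791 CPM in control pool 1, a range that held all 6 cKO pools. Its log2 fold change was 0.06 (SE 0.19), from −0.06 without control pool 5 to 0.23 at the highest with another pool left out, and 0.37 in the 8 libraries of low Xist. Agrn, which encodes agrin, had a log2 fold change of 0.21 (SE 0.12, edgeR adjusted p = 0.304), and of 0.40 in the 8 libraries (adjusted p = 0.0553).

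Dag1, which encodes dystroglycan, the receptor that binds laminin, perlecan and agrin through its sugar chains, stood at 546, 402, 456, 485, 264 and 420.0 CPM in control pools 1 to 6 and at 565, 523, 509, 501, 449 and 432 CPM in cKO pools 1 to 6. Control pool 5 was far under the rest and the groups overlapped (log2 fold change 0.21, SE 0.14, edgeR adjusted p = 0.345). In the 8 libraries it was 0.39 (adjusted p = 0.139). Deviations that follow transcript length were measured over all genes. In control pool 5, genes over 6 kb deviated from their mean by −0.285 on the log2 scale relative to genes under 2 kb. The deviation was 0.177 in control pool 1 and −0.0474, −0.0537, −0.0556 and −0.0669 in control pools 2, 3, 4 and 6. It was −0.0152 to 0.1186 in the cKO pools, so every control pool except pool 1 lay under all of them. In the 8 libraries of low Xist, all control pools lay under all cKO pools (0.0646 to 0.1186). There, group and length trend cannot be told apart for long transcripts such as Hspg2, Agrn and Lama3. Of the members tested, 16 had a transcript over 6 kb, and Dag1 was not among them. The part of transcript length was measured with offsets for it in the edgeR fit of 12 libraries. Under them the 3 called members passed again, and Lamc1 and Itga1 passed as lower too. No such fit was made with the 8 libraries.

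Itga4 had the largest change of the 39 members tested. It encodes an integrin chain that pairs with Itgb1 or Itgb7 and binds Vcam1 and fibronectin. It stood at 126, 172, 141, 183, 128 and 153 CPM in control pools 1 to 6 and at 67.5, 112, 57.2, 52.5, 33.4 and 31.9 CPM in cKO pools 1 to 6. All cKO pools lay under all control pools, with cKO pool 2 highest and cKO pools 5 and 6 lowest. The mean fell from 151 ± 23.3 to 59.1 ± 29.4 CPM (log2 fold change −1.35, SE 0.25, edgeR adjusted p = 0.0043). Over the 8 libraries of low Xist its log2 fold change was −1.01 (SE 0.21, edgeR adjusted p = 0.0177). Itga4 overlaps Cerkl on the opposite strand, and the counts were made by strand.

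Of its ligands, Vcam1 was higher in the cKO, at 29.9 ± 3.05 CPM against 22.0 ± 5.04 CPM (SD, n = 6 each, log2 fold change 0.46, edgeR adjusted p = 0.0492). Fn1, which encodes fibronectin, was not called (log2 fold change −0.38, edgeR adjusted p = 0.0896). Of its partners, Itgb7 was at 0.566 ± 0.282 CPM in the controls and 0.575 ± 0.122 CPM in the cKO, so Itgb1 was the only abundant one.

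Itga9, the chain nearest to Itga4 by sequence and a receptor for tenascin-C, stood at 414, 387, 390.5, 457, 222 and 327 CPM in control pools 1 to 6 and at 359.6, 374, 304, 295, 191 and 191 CPM in cKO pools 1 to 6. The groups overlapped and the 2 lowest values were cKO pools 5 and 6 (log2 fold change −0.36, SE 0.19, edgeR adjusted p = 0.2595). Without those pools and the other ones of high Xist, its log2 fold change was −0.05. Among integrin alpha chain transcripts, per kb, Itga4 held 7.85 ± 1.40% in the controls and 2.84 ± 1.36% in the cKO (SD, n = 6 each). The ranges of 5.19 to 8.87% and 1.62 to 5.32% touched only through control pool 1 and cKO pool 2.

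**Figure D3:**
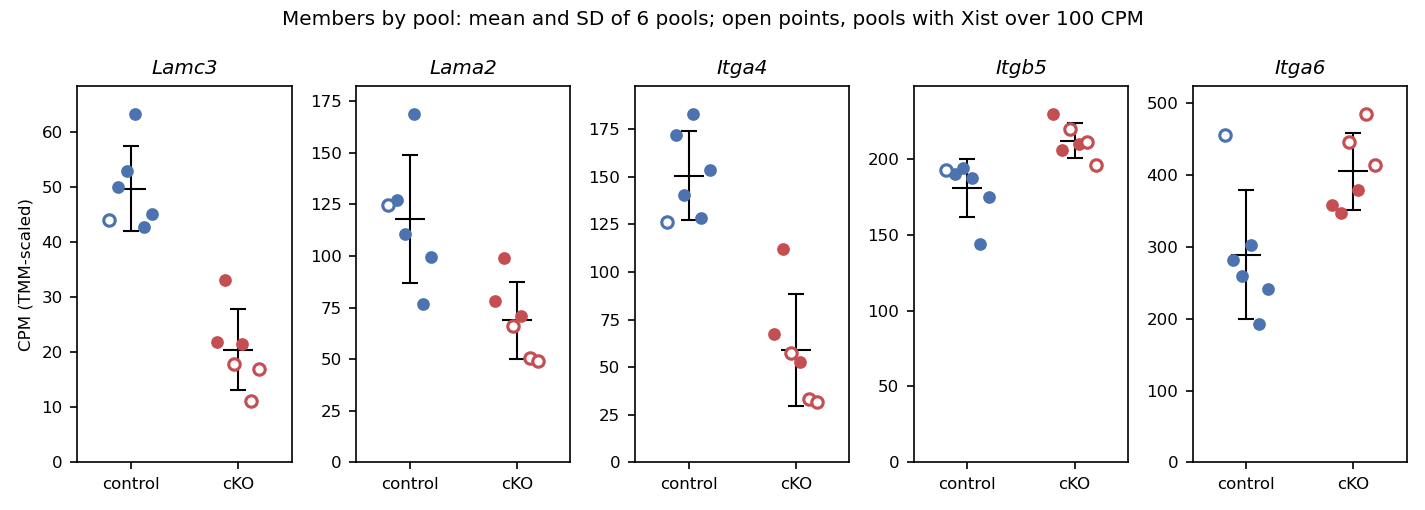
CPM of Lamc3, Lama2, Itga4, Itgb5 and Itga6 in each pool of 3 testes, with the mean and SD of the 6 pools of a group in black and each axis starting at 0. Open points are the 4 pools with Xist over 100 CPM, and the groups do not overlap for Lamc3, Itga4 and Itgb5.

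The laminin-binding alpha chains gave no call in the edgeR fit of 12 libraries. Itga6, which pairs with Itgb1 or Itgb4, was the most abundant alpha chain per kb of the longest transcript and came after Itga9 per kb of all exons joined. It stood at 455, 282, 259.9, 302, 193 and 242 CPM in control pools 1 to 6 and at 358, 347, 445, 378, 485 and 414 CPM in cKO pools 1 to 6. Control pool 1, with high Xist, lay among the cKO pools, and the other 5 control pools lay under all 6 cKO pools. The log2 fold change was 0.48 (SE 0.16, edgeR adjusted p = 0.0868) with 12 libraries and 0.50 (SE 0.12, adjusted p = 0.0345) with the 8. DESeq2 and the edgeR fit without control pool 1 called it too, and the latter and the fit with quality weights called Itga3 as well as Itga6. The share of Itga6 among alpha chain transcripts was 33.0 ± 4.91% in the controls and 44.6 ± 6.18% in the cKO (SD, n = 6 each). The ranges of 28.7 to 42.5% and 37.4 to 53.3% overlapped. Per kb of all exons joined, the shares were 22.1% and 31.7%. Itga4 and Itga9 are part of the same sum. Itga3 stood at 0.26 on the log2 scale (edgeR adjusted p = 0.148), and Itga7, the laminin receptor of muscle, at −0.63 (adjusted p = 0.202), with 2.17 ± 1.01 CPM in the controls.

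The 4 collagen-binding alpha chains all had log2 fold changes below 0, Itga11 at −0.37, Itga1 at −0.32, Itga2 at −0.23 and Itga10 at −0.05, and none passed in edgeR with 12 libraries. Itga11 was called lower with quality weights and Itga1 with length offsets. The 4 chains that bind the RGD motif of fibronectin and vitronectin all had values above 0, from 0.10 for Itga8, the nephronectin receptor, to 0.16 for Itga5, the fibronectin receptor. Itgav stood at 0.14 (edgeR adjusted p = 0.137) with a narrow spread, 116 ± 5.06 CPM in the controls and 128 ± 7.54 CPM in the cKO (SD, n = 6 each). Itga5 and Itgav were called higher with quality weights. Under the scaling alternatives these signs were kept. In the 8 libraries of low Xist, Itga11 stood at −0.13, Itga1 at −0.17, Itga2 at −0.06 and Itga10 at 0.08, while the 4 chains that bind RGD stood between 0.05 and 0.33.

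The alpha chains of leukocytes were scarce. Itgal stood at 2.53 ± 0.480 CPM, Itgam at 2.35 ± 0.675 CPM and Itgae at 0.830 ± 0.276 CPM in the controls (SD, n = 6), and none was called. Itga2b, the platelet chain, stood at 3.70 ± 1.49 CPM in the controls. The summed level of 12 leukocyte markers was 68.1 to 101 CPM in the controls and 83.3 to 110.4 CPM in the cKO, and all 12 were above 0 in every library. Of these markers Csf1r and Cx3cr1, both receptors of macrophages, were higher in the cKO (log2 fold change 0.44 and 0.92, edgeR adjusted p = 0.0075 and 0.0018). None was called lower, beside 3.28% of all genes called higher and 4.85% lower. Of the 12, 9 had a log2 fold change above 0 and 3 below. Leukocytes also carry Itga4, and their part in its level was not tested.

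Itgb1, the beta chain of most matrix-binding integrins, was the most abundant member per kb in the controls, at 554, 605, 576, 589, 855 and 773 CPM in control pools 1 to 6 and at 562, 574, 546, 541, 546 and 583 CPM in cKO pools 1 to 6. The cKO pools lay between 541 and 583 CPM, and control pools 5 and 6 lay far above the rest (log2 fold change −0.24, SE 0.10, edgeR adjusted p = 0.164). Itgb5, the partner of Itgav in the vitronectin receptor, stood at 192, 190.1, 194, 187, 144 and 175 CPM in control pools 1 to 6 and at 229.5, 206, 219.7, 210.0, 211 and 196 CPM in cKO pools 1 to 6. Every cKO pool lay above every control pool, by a small margin between control pool 3 and cKO pool 6. The log2 fold change was 0.23 (SE 0.08) with an edgeR adjusted p of 0.078, and so Itgb5 was not called. DESeq2, the fit with quality weights and the edgeR fit without control pool 1 called it. Of the other beta chains, Itgb3, Itgb8, Itgb4, Itgb2 and Itgb7 had log2 fold changes from −0.08 to 0.11, and Itgb6, the epithelial partner of Itgav, had fewer counts than the filter asks. Itgb6 had a control mean of 0.0177 CPM, and of the leukocyte chains that did not pass either, Itgad had one of 0.367 CPM and Itgax one of 0.261 CPM.

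Per kb of transcript, the 8 most abundant members in the controls were Itgb1 at 173 ± 32.5, Lamb1 at 102 ± 9.85, Dag1 at 75.7 ± 16.8, Nid1 at 71.1 ± 11.7, Itga6 at 67.0 ± 20.8, Lamc1 at 56.6 ± 9.24, Itgb5 at 55.0 ± 5.81 and Itga9 at 52.2 ± 11.7 CPM per kb (SD, n = 6). Itgb1 and Lamb1 stood apart from the rest, and from Dag1 to Itga9 the gap between neighbours in the order was smaller than the larger of their SDs. Where the length was that of all exons joined, Itga6 moved from place 5 to place 11 and Lamb1 from 2 to 4. The called members were of middle rank, Itga4 at 15.4, Lama2 at 12.3 and Lamc3 at 8.45 CPM per kb.

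**Figure D4:**
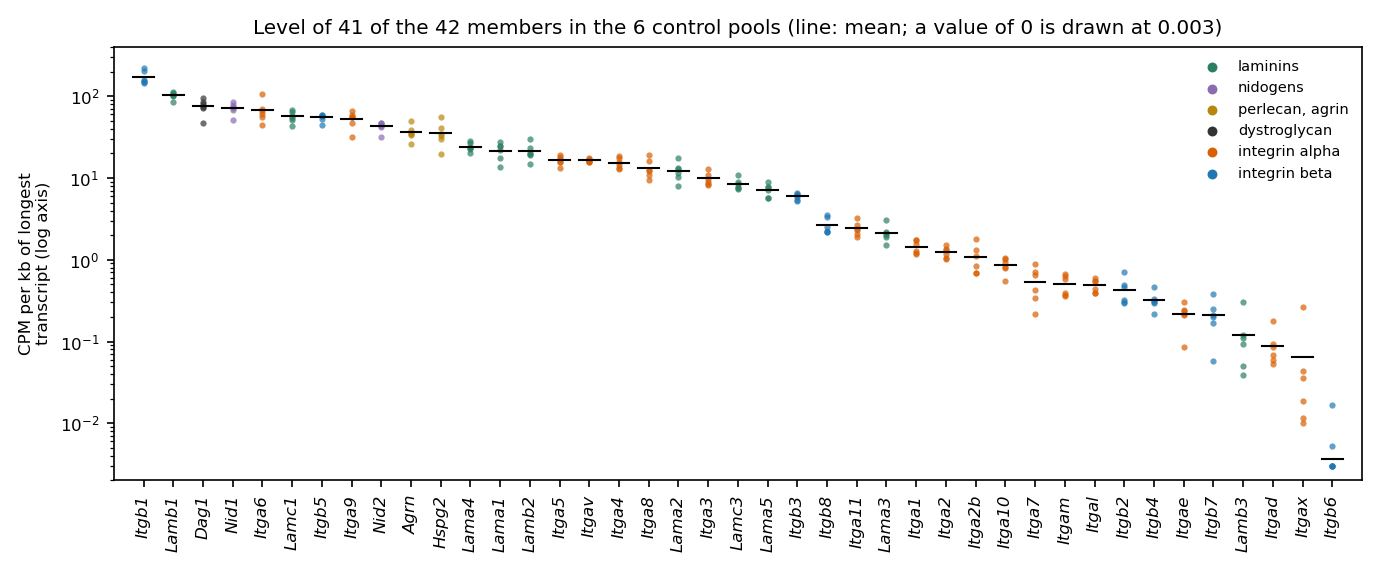
Level of 41 of the 42 members in the 6 control pools, as CPM per kb of the longest transcript on a log axis, in descending order. Points are pools and lines are means, from 173 CPM per kb for Itgb1 down to 0.00369 for Itgb6, and a pool with a value of 0 is drawn at 0.003.

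The cKO pools differed in how much Nr2f2 they kept. Nr2f2 was at 119 CPM in cKO pool 2, 78.9 in pool 1, 78.8 in pool 4, 75.4 in pool 3, 53.6 in pool 6 and 50.2 in pool 5. The order of Lamc3 over the same pools was the same, with pool 2 first and pool 5 last, and the orders of Lama2 and Itga4 differed from it only between neighbours. Pools 5 and 6, lowest in these transcripts, are also 2 of the 3 cKO pools with high Xist. This order is given as a description of 6 pools, with no test.

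Transcripts of other cell types moved with the group. The summed level of 8 contractile genes of smooth muscle was 582 to 719.5 CPM in the controls and 339 to 529 CPM in the cKO, without overlap, and 8 of 8 were called lower. The sum of 7 interstitial progenitor markers, a list that holds Nr2f2, was 1157 to 1468 CPM in the controls and 684 to 1221 CPM in the cKO, and that of 5 fetal Leydig markers 1561 to 2910 CPM and 841 to 1745 CPM, with all markers of the 3 lists above 0 in every library. Sertoli markers summed to 1140 to 1700.3 CPM in the controls and 1126 to 1703 CPM in the cKO. The part of these cells in the lower Lamc3, Lama2 and Itga4 was not tested. Endothelial markers, with 10 of 10 above 0, summed to 422 to 616 CPM and 416 to 518 CPM.

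**Figure D5:**
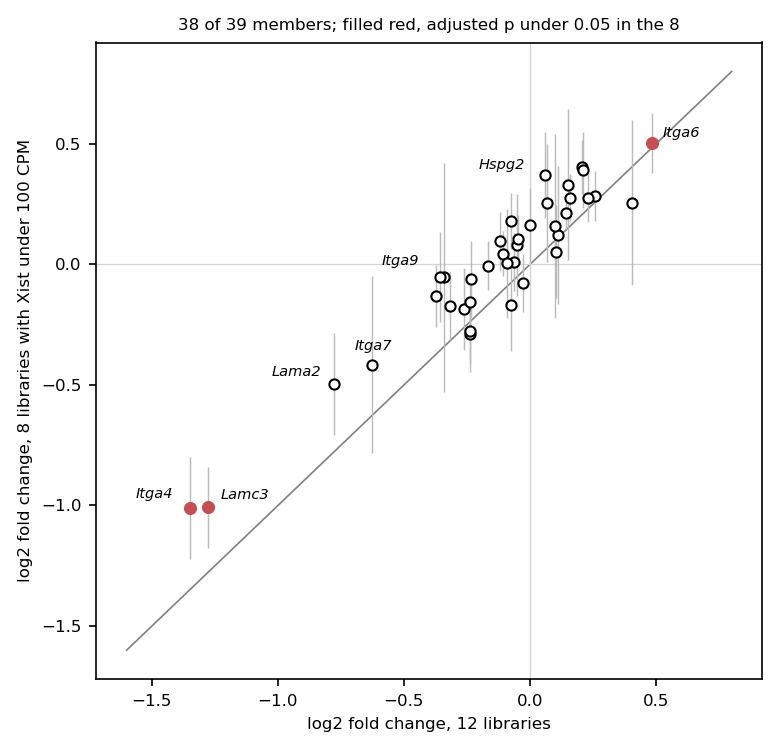
Log2 fold change of 38 of the 39 members tested with all 12 libraries (horizontal axis) and with the 8 libraries of low Xist (vertical axis, with its standard error as a grey bar). The diagonal marks equal values, and filled red points, Lamc3, Itga4 and Itga6, passed an edgeR adjusted p of 0.05 with the 8 libraries.

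With the 8 libraries, 2 of the 39 members were called lower, Lamc3 and Itga4, beside 3.39% of all genes, and 1 was called higher, Itga6, beside 3.68%. In 4 members, with Lamc3, Itga4 and Itgb1 among them, all cKO pools lay under all control pools, beside 14.6% of all genes, and in 6, Agrn, Dag1, Itga6, Itga5, Itgav and Itgb5, every cKO pool lay above them, beside 13.6%. The members had a median change of 0.04 on the log2 scale in this setting.

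Other genes of the same structures were counted from lists of basement membrane proteins, integrin ligands, adhesion adaptors and the dystroglycan complex. Of 24 other basement membrane genes tested, 5 were lower, beside 4.85% of all genes, and 1 was higher, beside 3.28%. Their median change was −0.06 on the log2 scale. The collagen IV chains Col4a4 (44.2 ± 4.85 CPM to 19.1 ± 7.01 CPM, log2 fold change −1.21, edgeR adjusted p = 0.0011), Col4a3 (−0.65, adjusted p = 0.0218) and Col4a6 (−0.32, adjusted p = 0.0372) were lower. Col4a1 and Col4a2, the chains of nearly all basement membranes, had log2 fold changes of 0.19 and 0.22 and did not pass. Frem1, a protein of the Fraser complex at epithelial borders, was lower (log2 fold change −1.13, edgeR adjusted p = 0.000736), and so was Egflam, whose product pikachurin binds dystroglycan (−0.69, adjusted p = 0.0119). Fbln2, which encodes the laminin-binding fibulin-2, was higher (0.50, adjusted p = 0.0032).

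Of 20 other integrin ligands tested, 3 were lower and 3 were higher, beside 4.85% and 3.28% of all genes. The higher ones were Vcam1, Ibsp and Tnc. Tnc, which encodes tenascin-C, had overlapping groups (log2 fold change 0.41, edgeR adjusted p = 0.0458). Ibsp, an RGD protein of bone, rose the most in fold but from a low level, 0.191 ± 0.0851 CPM in the controls to 2.59 ± 0.811 CPM in the cKO (SD, n = 6 each, log2 fold change 3.69, edgeR adjusted p = 1.25e-05). Thbs1, a matrix protein of wound and vessel, had the largest fall of those called in this list (log2 fold change −0.67, edgeR adjusted p = 0.0338). It was followed among them by Emilin1, an elastic fibre protein that binds Itga4 and Itga9 integrins (−0.52, adjusted p = 0.0045), and Tgfb2 (−0.41, adjusted p = 0.0412). Of 24 adhesion adaptors, which join integrin tails to actin, 3 were lower and none was higher, beside the same shares of all genes. They were Fermt2 (log2 fold change −0.45, edgeR adjusted p = 0.007), which encodes kindlin-2, Lims1 (−0.42, adjusted p = 0.0158) and Parva (−0.33, adjusted p = 0.0042), both partners of integrin-linked kinase. Of 24 genes of the dystroglycan complex and its glycosylation, 2 were lower, Sgce (−0.38) and Sgcb (−0.27), both sarcoglycans, and 1 was higher, Sntb1 (0.68), a syntrophin, beside 4.85% and 3.28% of all genes.

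The counts of these lists with the 8 libraries of low Xist were 4 lower and 2 higher for the basement membrane, 2 lower and 2 higher for the integrin ligands, 1 lower and none higher for the adaptors, and none lower and 2 higher for the dystroglycan complex, beside 3.39% lower and 3.68% higher over all genes. With 1 pool left out at a time, the higher integrin ligands, among them Vcam1 with its adjusted p near the threshold, numbered 1 to 3.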

How the data were processed

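RNA-seq libraries of 12 pools of E14.5 testes, 6 per group, were analysed, grouped by the genotype in their labels. The authors trimmed reads with Trim Galore 0.6.7, aligned them to mm10 with STAR 2.5 and deposited raw counts of read pairs per RefSeq Curated gene model, made by strand with featureCounts of Subread 1.5.0-p1. Reads shared between near-identical copies or same-strand overlapping genes (Itga1 with Pelo) could not be resolved here.

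Counts were fitted in R 4.3.3 with edgeR 4.0.16 (TMM scaling, filterByExpr set to at least 10 counts and 15 in total, glmQLFit, glmQLFTest, no covariate), with Benjamini-Hochberg adjustment over 15572 genes and a threshold of 0.05. The SE of a log2 fold change was derived from the F statistic (its size over the root of F). The authors used DESeq2, which was run here (1.42.0) as an alternative beside limma 3.58.1, other scalings and filters, a replicate block, an Xist covariate, 8 libraries of low Xist, length offsets (chosen after seeing the data) and each pool left out. The fit was tested on simulated counts. Exon lengths came from GENCODE M21. Libraries held 7044531 to 59404778 counts, and Lamc3, the least counted of the called members, had at least 82 in each.

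The members, lists and tests were chosen with earlier results of these data known. The values of 1 member are not reported here, though it is counted. Values by library are given for members called, members whose groups do not overlap and the 8 highest per kb. For the lists of basement membrane, ligand, adaptor and dystroglycan genes, those called with 12 libraries are named. A further few (Itga6, Fn1, Col4a1, Col4a2, Col4a6, Tnc, Tgfb2) were added after their values were seen.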

Additional observations from a re-analysis of the deposited data

Results flagged for a closer look

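In 2 of 80 groups of 6 pools examined, 1 pool stood apart from the other 5 by Dixon's test at 95%, beside the 1 in 20 that chance gives. Lamb3 was at 1.49 CPM in control pool 1, where the other control pools lay between 0.188 and 0.578 CPM. Nid2 was at 153 CPM in control pool 5, where the other control pools lay between 206 and 231 CPM. Control pool 1 is a pool of high Xist, and control pool 5 the one with the lowest deviation of long against short genes, −0.285 on the log2 scale. Their part in these values was not tested.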

How the results depend on the processing

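Lamc3 and Itga4 were called lower in all 24 alternatives. Their log2 fold changes ran from −1.46 to −1.17 and from −1.63 to −1.22 with 1 pool left out, and the nearest to 0 were −1.01 for both with the 8 libraries. Lama2 ran from −0.91 to −0.65 with 1 pool left out and was not called without control pool 4, without cKO pool 5 or with the 8 libraries. The members called lower numbered 3, 2 to 5 with 1 pool left out (5 without control pool 5, with Lama1 and Lamc1), 4 by DESeq2, 5 with length offsets and 7 with quality weights. Those called higher numbered 0, 0 to 4 with 1 pool left out (4 without control pool 1: Agrn, Itga3, Itga6 and Itgb5), 2 by DESeq2 (Itga6 and Itgb5), 6 with quality weights and 1 with the 8 libraries. Over all genes, calls numbered 1266, 816 without cKO pool 4 to 3106 without control pool 1, 1919 by DESeq2 and 3860 with quality weights. In their deviations from the group means, pools of the same number correlated from −0.34 to 0.29, and 0 of 6 controls correlated best with its own number. Differences such as high Xist enter these correlations too. They therefore cannot show whether the numbers pair the samples. A replicate block gave 931 calls with the same 3 members. Lower basement membrane genes numbered 3 to 6 and lower integrin ligands 1 to 6 with 1 pool left out.

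Signs turned only for members that were not called. With the 8 libraries the log2 fold change was 0.18 for Lama3, 0.045 for Lamb1, 0.095 for Nid1, 0.0095 for Nid2, 0.080 for Itga10, 0.0044 for Itgal, 0.11 for Itgb3 and 0.16 for Itgb8. With an Xist covariate it was 0.0050 for Itgal, 0.032 for Itgb3 and 0.10 for Itgb8. With quality weights it was 0.0039 for Lama3, 0.26 for Lamb3, 0.044 for Itgb4 and 0.23 for Itgb8. With length offsets it was −0.014 for Hspg2. Itgb8, at −0.0012, also stood at 6.0e-05 under upper quartile scaling, 0.033 without scaling factors, 0.0022 without the filter, 0.071 by limma-voom and 0.0060 with the block. With 1 pool left out, the ranges that crossed 0 were −0.15 to 0.055 for Lama3, −0.11 to 0.091 for Lamb2, −0.56 to 0.38 for Lamb3, −0.058 to 0.23 for Hspg2, −0.14 to 0.026 for Itga10, −0.063 to 0.18 for Itgam, −0.011 to 0.32 for Itgb2, −0.14 to 0.018 for Itgb3, −0.21 to 0.082 for Itgb4, −0.047 to 0.21 for Itgb7 and −0.067 to 0.084 for Itgb8. The causes were not tested. Lamb3, Itgb7, Itgb2 and Itgae are among the members tested with few counts, which limits their precision.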
